A study of Arabidopsis thaliana with 6 samples.

Results

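In seedlings of Arabidopsis thaliana, 1173 regions of the genome carried a peak of SWN-GFP in both libraries with VAL1 and VAL2 intact and in neither library of the val1 val2 double mutant. They were found by joining peaks of the 4 libraries that overlapped by 1 bp or more on chromosomes 1 to 5, which gave 13169 union regions in all. Without SWN-GFP replicate 1 or 2 the same rule gave 2387 or 2146 lost regions, since a single list then had to hold the peak. They were chosen by the presence or absence of a called peak in each list. The word lost, used for them below, states only that choice, so their loss is not a finding. The other classes were 4079 regions with a peak in all 4 libraries, called kept, 1614 with a peak in both libraries of the double mutant and in neither of the others, called gained, and 6303 with any other combination, called mixed.

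SWN-GFP plants carried SWN fused to GFP under the SWN promoter (pSWN:SWN-GFP) in a swn mutant, and SWN-GFP val1 val2 plants carried the same fusion in swn val1 val2. Both genotypes thus had the swn mutation and the transgene, and they differed in VAL1 and VAL2. Whole seedlings 14 days old were used, and tagged SWN was precipitated with an antibody against GFP in 2 libraries of each genotype. There was also 1 input library per genotype, which is not analysed here. The labels name neither the mutant alleles nor the number of transgenic lines, nor do they state that replicates were separate cultures, and differences between replicates may therefore be technical only. The title of the study concerns the recruitment of SWN to its targets by VAL1 and VAL2, and the lost regions are the places where a peak was called with both genes intact and not with both mutated.

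SWN (SWINGER) belongs to the catalytic subunits of Polycomb repressive complex 2 (PRC2), which methylates lysine 27 of histone H3 and so marks genes for stable repression. PRC2 has little sequence preference of its own and is brought to genes in part by DNA-binding proteins. VAL1 and VAL2 are such proteins: they bind RY elements through a B3 domain and are known for silencing seed maturation genes and the flowering repressor FLC after germination.

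The lists of SWN-GFP held 8189 and 8666 peaks, those of the double mutant 9177 and 9618, and each covered 5.53 to 6.35 Mb. Peaks in lost regions were 1242, or 15.2%, of the list of SWN-GFP replicate 1 and 1239, or 14.3%, of that of replicate 2. Of all union regions 8.91% were lost, and among the 5836 that both SWN-GFP lists marked the share was 20.1%, or 30.5% without SWN-GFP replicate 1. The read depth behind the lists is unknown. Where a list lacks a peak, the signal stayed under the caller's threshold, whose level varies with depth and control, and SWN-GFP may still have been present. Genotype cannot be told apart from any input, batch or depth that each genotype had for itself.

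Lost regions were mostly weak to middling peaks of their own lists. Fold enrichment is the peak caller's ratio of fragments at a summit to the local background, and the strongest peak of a region stands for it. In SWN-GFP replicate 1 the fold of lost regions ran from 1.77 to 14.6 with a median of 2.96, and in replicate 2 from 1.78 to 13.1 with a median of 2.90. These medians lay at percentiles 43.7 and 46.5 of all peaks of the list. Kept regions had median folds of 3.99 and 3.96, at percentiles 70.8 and 72.5. The local background at the summits was close in both classes, with medians of 9.26 and 10.6 fragments in lost regions and 9.12 and 10.4 in kept regions. The summits of both replicates in a lost region lay a median of 93 bp apart, against 85 bp in kept regions. In mixed regions that both SWN-GFP lists marked the median was 104.5 bp. The rule asks for a peak of both lists in the same region, which limits this distance. The fold chose no member directly, but a weak peak passes the caller's threshold less readily in any list, so these values are a description with no test.

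**Figure D1:**
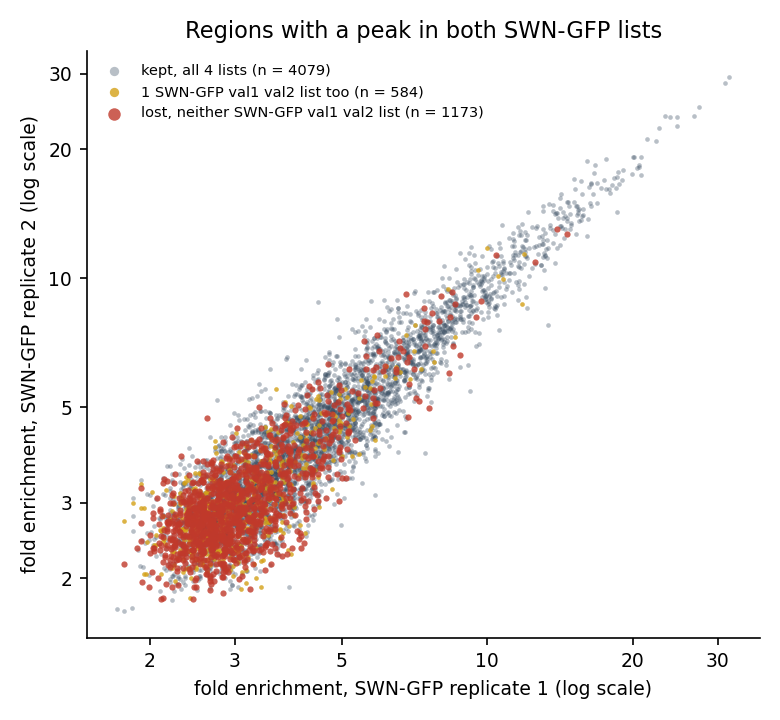
Fold enrichment of each region with a peak in both SWN-GFP lists, replicate 1 on the horizontal and replicate 2 on the vertical axis, both on log scales, coloured by what the SWN-GFP val1 val2 lists held. Lost regions gather around 3 in both lists, and 10 of them reach 8 or more in both.

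The share of regions that were lost was lower among stronger peaks. Regions were placed by the lower of their percentiles of fold in the SWN-GFP lists. Up to percentile 25, 468 of 1259 regions (37.2%) were lost, and between 25 and 50, 357 of 1294 (27.6%) were. From 50 to 75 the count was 250 of 1532 (16.3%), from 75 to 90 it was 72 of 1045 (6.89%), and above 90 it was 26 of 706 (3.68%). Strong lost regions thus existed but were a small minority of strong regions. A fold of at least 3 in both SWN-GFP lists was reached by 3378 regions, of which 372 (11.0%) were lost. For at least 4 the count was 114 of 1947 (5.86%), for at least 5 it was 54 of 1193 (4.53%) and for at least 8 it was 10 of 400 (2.5%). By the caller's own significance, 561 lost regions had a −log10 q of at least 5 in both lists, and 24 had one under 2 in either list. The same counts by q over all regions are not given here.

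Regions just outside the rule were of more than 1 kind. A further 584 regions met the rule in SWN-GFP but also had a peak in 1 list of the double mutant, 228 of them in its replicate 1 and 356 in its replicate 2. Their median folds in the SWN-GFP lists were 2.97 and 2.92, and their median length was 627 bp. In the mutant lists that held a peak there, its median fold was 2.51 in replicate 1 and 2.45 in replicate 2, at percentiles 25.7 and 27.7. In the SWN-GFP lists these 584 regions had lengths and folds near those of lost regions. On the other side of the rule, shorter and weaker, 761 regions had a peak in SWN-GFP replicate 1 alone and 1019 in replicate 2 alone, with median lengths of 247 and 257 bp and median folds of 2.49 and 2.42.

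Most lost regions were short and rested on a single peak. Their length ran from 207 to 2701 bp with a median of 579 bp and quartiles of 427 and 805 bp, and 159 (13.6%) were longer than 1000 bp. Without SWN-GFP replicate 1 or 2 the median was 328 or 318 bp. In 1053 of the 1173 each SWN-GFP list had exactly 1 peak. That also held for 2971 of the 4079 kept regions, and for 4527 of all 5836 regions that both SWN-GFP lists marked. The peaks covered a median of 447 bp in replicate 1 and 478 bp in replicate 2. Together the lost regions made up 784 kb. Kept regions had a median length of 1152 bp, with 59.5% over 1000 bp, and gained regions had 502.5 bp, with 6.69% over 1000 bp. A union over 4 lists tends to be longer than one over 2, so kept and lost lengths differ in part by construction, while lost and gained regions both join 2 lists.

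**Figure D2:**
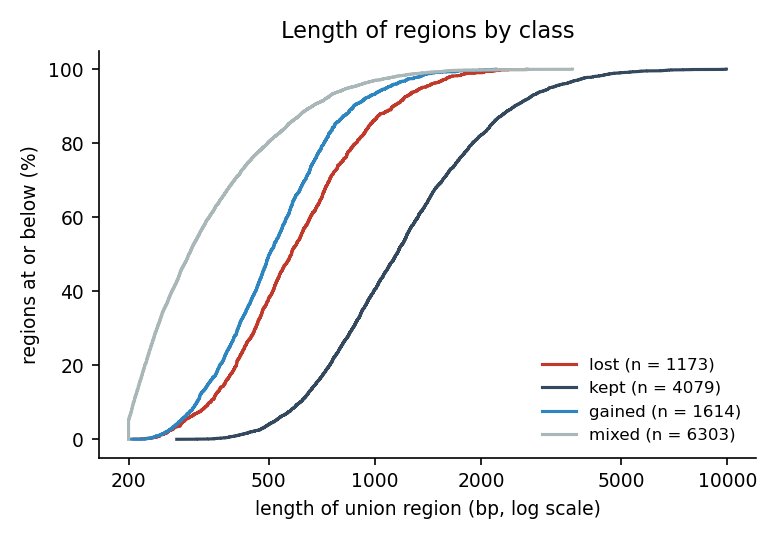
Cumulative share of union regions by length in bp on a log scale, 1 line per class. The line of lost regions (median 579 bp) runs beside that of gained regions (median 502.5 bp) and to the left of kept regions (median 1152 bp).

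Lost regions lay mainly over protein-coding genes. A protein-coding span was overlapped by 852 of them, or 72.6% (exact binomial 95% interval 70.0% to 75.2%, over regions that are not all independent). A span of a noncoding RNA gene alone was overlapped by 34 and one of a pseudogene alone by 26. Another 168 (14.3%) overlapped no gene span but had a gene within 1000 bp, and 93 (7.93%) had none within 1000 bp. Among kept regions 85.0% overlapped a protein-coding span, 5.86% lay only within 1000 bp of a gene and 3.06% lay farther away. Among gained regions these shares were 69.3%, 14.5% and 9.42%, and among all union regions 71.9%, 14.4% and 7.74%, so the places of lost regions were near those of all regions.

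Length does not enter when summits are counted. Of the summits of lost regions in SWN-GFP replicate 1, 68.4% lay in a protein-coding span, against 76.5% of those of kept regions. After a move of 1000 bp to lower or higher coordinates 49.7% and 49.8% of the lost summits lay in such a span, and after 5000 bp 64.0% and 64.6% did. For kept summits the moved shares were 43.5% and 44.2% at 1000 bp and 59.1% and 57.1% at 5000 bp. Lost summits were thus in genes more often than points a short way off, but only a few percentage points more often than points 5000 bp away. The gene table gives no strand, exon or untranslated region, so positions within genes were not analysed here.

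All 5 chromosomes held lost regions. Of the regions that both SWN-GFP lists marked, 352 of 1570 were lost on chromosome 1 (22.4%), 148 of 908 on chromosome 2 (16.3%) and 229 of 1143 on chromosome 3. Chromosome 4 had 162 of 895 (18.1%) and chromosome 5 had 282 of 1320 (21.4%). The share was lowest on chromosome 2 and highest on chromosome 1, and that difference was not tested.

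Many lost regions were far from any peak of the double mutant. The nearest peak of either mutant list lay at a median of 3283 bp, with a lowest of 17 bp and a highest of 110565 bp. It was within 100 bp for 26 lost regions (2.22%), within 500 bp for 156 (13.3%) and within 1000 bp for 288 (24.6%), while for 452 (38.5%) it was more than 5000 bp away. By list, the median was 4341 bp to SWN-GFP val1 val2 replicate 1 and 3882 bp to replicate 2. Gained regions were at like distances from the nearest SWN-GFP peak, with a median of 3173 bp and 25.6% within 1000 bp. For about 1 lost region in 4, then, SWN-GFP was still called close by in the double mutant, and the edge of a retained domain is included in the count.

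**Figure D3:**
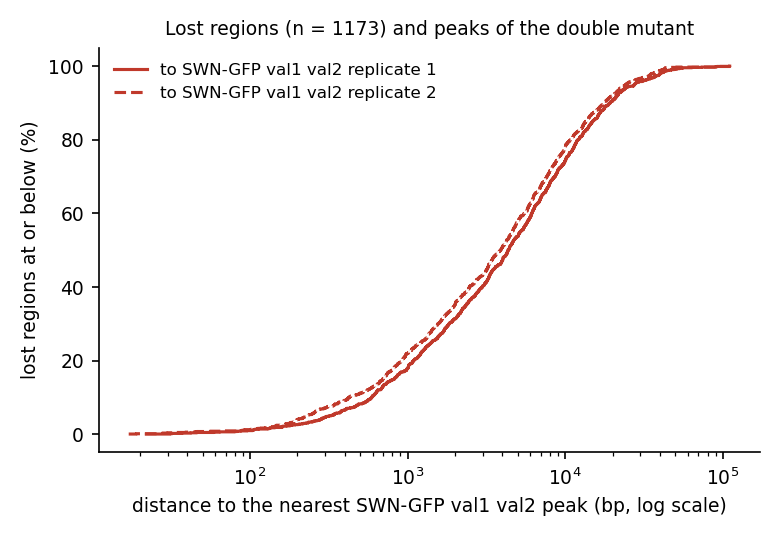
Cumulative share of the 1173 lost regions by distance in bp (log scale) to the nearest peak of each SWN-GFP val1 val2 list. The lines of both replicates run close together, with medians of 4341 and 3882 bp.

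The 25 strongest lost regions, ranked by the lower of the folds in the SWN-GFP lists, had a lower fold between 6.52 and 13.1. Their lengths ran from 850 to 2387 bp with a median of 1364 bp. Of these, 21 overlapped a protein-coding gene, 3 overlapped no gene, and in 24 the nearest peak was more than 1000 bp away in both mutant lists. There were 9 on chromosome 1, 1 on chromosome 2, 6 on chromosome 4, 9 on chromosome 5 and 0 on chromosome 3.

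At the head of this ranking stood genes that the gene table lists only by locus tag. The region over AT5G24130 (chromosome 5, 8161980 to 8162929, TAIR10) had a fold of 13.9 in SWN-GFP replicate 1 and 13.1 in replicate 2, and lay 4242 and 3490 bp from the nearest peak of the mutant lists. The region over AT1G49330 (chromosome 1, 18249680 to 18251940) had folds of 14.6 and 12.7 and covered the whole gene span of 1173 bp, with mutant peaks 8376 and 1105 bp away. AT5G48420 (chromosome 5, 19625853 to 19626976) had 12.6 and 10.9, and mutant peaks were 981 and 958 bp away. It was the 1 region of the 25 with a mutant peak within 1000 bp. The region over AT5G16700 (chromosome 5, 5480789 to 5483175) had 10.4 and 11.4, and took in 2257 of the 2283 bp of the gene, with the nearest mutant peaks at 18738 and 10967 bp. In all 4 of these regions both SWN-GFP lists were above percentile 97 of their own peaks and both mutant lists had no peak.

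Seed genes were next. PER1 (AT1G48130) encodes a peroxiredoxin of the mature seed. Its region on chromosome 1, 17780170 to 17781880, had folds of 9.72 and 8.87, covered the whole span of 1299 bp, and was 36811 and 12924 bp from the nearest peaks of the mutant lists. OLEO1 (AT4G25140) encodes an oleosin, a protein of the surface of seed oil bodies. Its region on chromosome 4, 12900205 to 12901105, had folds of 8.58 and 8.73 and lay 38016 and 35557 bp from mutant peaks. Both genes thus stood far from any mutant peak. A further oleosin gene, OLEO3 (AT5G51210), had a weaker lost region with folds of 3.73 and 4.42, and mutant peaks were 32308 and 32300 bp away.

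Several other genes with symbols were among the 25. LBD40 (AT1G67100), of the lateral organ boundaries domain family of transcription factors, had a region on chromosome 1, 25053564 to 25055062, with folds of 8.04 and 9.11 over the whole span of 1192 bp. COR27 (AT5G42900), a cold-induced gene also known for its part in the circadian clock, had folds of 7.44 and 6.97 at chromosome 5, 17198930 to 17199931. For LBD40 mutant peaks were 6860 and 6914 bp away, and for COR27 14117 and 14178 bp. CYP94C1 (AT2G27690), whose enzyme oxidises the active jasmonate, had 8.79 and 6.64 at chromosome 2, 11809291 to 11810888, with mutant peaks at 8084 and 7303 bp. One region on chromosome 4, 16907856 to 16909219, with folds of 7.39 and 8.53, overlapped 502 bp of SERAT3;2, a serine acetyltransferase gene of cysteine synthesis, and 723 bp of IDH-III, a gene of an isocitrate dehydrogenase subunit. The lists cannot assign that peak to either gene. The sucrose transporter gene SUT4 had 6.59 and 6.88 at chromosome 1, 3243848 to 3245103. The region at chromosome 5, 9666778 to 9667992, with 6.56 and 7.14, held 576 bp of AT5G27370, its whole span, and 81 bp of GSH2, a glutathione synthetase gene. None of the mutant lists had a peak in any of these regions, by the rule.

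Not all of the strongest lost regions were over protein-coding genes. PSEUDOSRKA, a pseudogene of a self-incompatibility receptor kinase, had folds of 6.68 and 6.77 at chromosome 4, 11386038 to 11387562, and mutant peaks were 30862 and 30821 bp away. A region with 7.50 and 7.92 lay over 1042 bp of the transcribed pseudogene AT1G27560. It also overlapped 17 bp of the protein-coding gene AT1G27555, so it counts among the 21 over a protein-coding gene. The 3 regions over no gene lay at chromosome 1, 12705312 to 12707350 (8.44 and 9.27), chromosome 5, 8497741 to 8498590 (7.44 and 7.63), and chromosome 4, 14183854 to 14185260 (8.48 and 6.96). Their nearest mutant peaks were 1676 bp or more away.

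**Figure D4:**
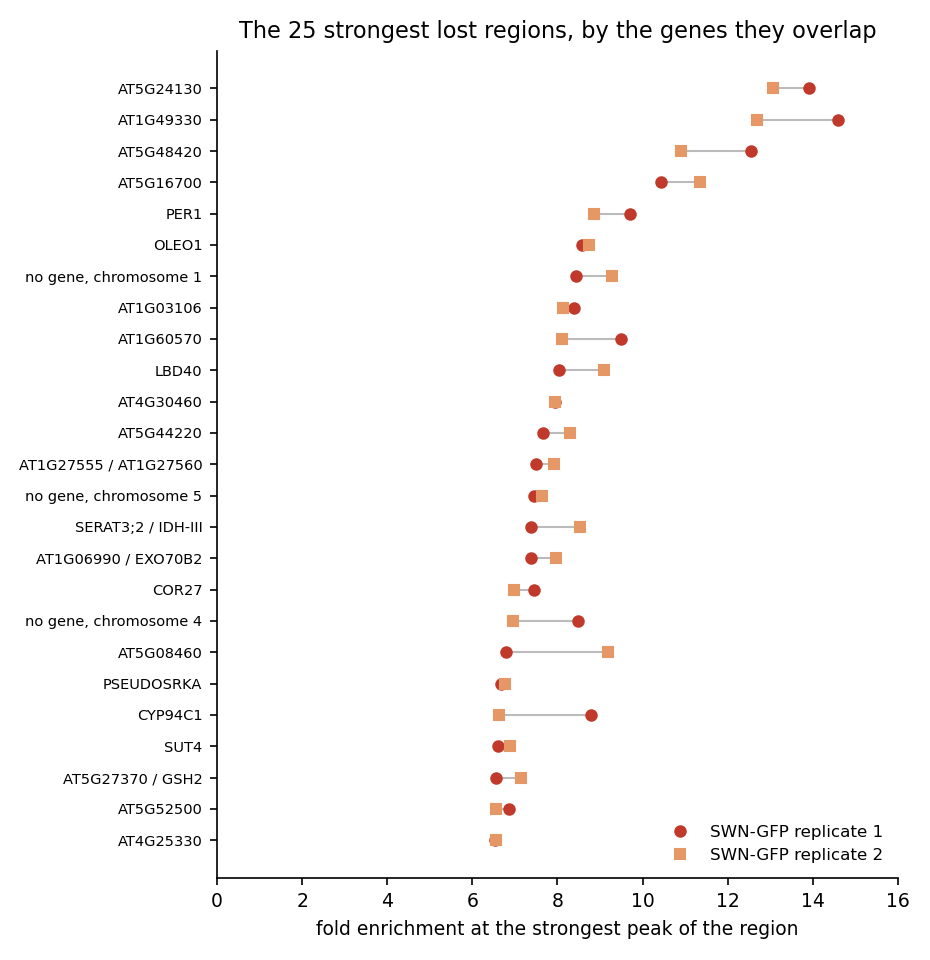
Fold enrichment of the strongest peak of each of the 25 strongest lost regions in SWN-GFP replicate 1 (circles) and replicate 2 (squares), named by the genes they overlap. The lower value of each pair runs from 6.52 at AT4G25330 to 13.1 at AT5G24130, and the replicates lie close together at most regions.

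The 10 broadest lost regions, ranked by the shorter of the lengths covered in the SWN-GFP lists, ran from 1906 to 2701 bp, and 5 of them were also among the 25 strongest. All 10 overlapped protein-coding genes. The region over AT1G61890 on chromosome 1, 22868612 to 22871312, was the longest at 2701 bp, with folds of 5.21 and 4.94 and peaks that covered 2569 and 2465 bp. NCED2 (AT4G18350) encodes a dioxygenase of the family that makes the precursor of abscisic acid. Its region on chromosome 4, 10142613 to 10144665, took in 2034 of 2392 bp of the gene with folds of 7.23 and 5.19, and mutant peaks were 13019 and 1352 bp away. SUVH7 (AT1G17770), of a family of SET-domain histone methyltransferase genes, had a broad region of moderate fold. It lay on chromosome 1, 6120897 to 6122802, with folds of 3.50 and 3.90 at percentiles 60.9 and 71.7, and was 42588 and 22429 bp from mutant peaks. The serine carboxypeptidase-like gene scpl31 had folds of 5.98 and 6.77 over 2170 bp at chromosome 1, 3695518 to 3697687.

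At the level of genes, 841 protein-coding genes lay under lost regions, and a median of 30.1% of their span was covered by them. In 35 the whole span was. A gene counts as lost when a peak overlaps its span in SWN-GFP replicates 1 and 2 and none does in the mutant. By that count 679 of the 841 were lost, 95 were kept and 67 were mixed, as where another part of the gene had a peak in the double mutant. Over all genes, 740 of 4639 protein-coding genes with a peak in both SWN-GFP lists were lost (16.0%). Genes of other kinds were lost at shares of 15.2% for noncoding RNA genes (73 of 481) and 22.3% for pseudogenes (31 of 139). All kinds together gave 844 of 5259 (16.0%). Lost protein-coding genes had a median span of 1792 bp, against 1756 bp for kept and 2078 bp for all protein-coding genes, and 39.6% of them had a symbol in the gene table, against 43.7% of kept genes.

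Some genes lost SWN-GFP peaks over part of their length only. WOX12, a homeobox gene of the WUSCHEL family, was under 4 lost regions. Peaks covered 1794 and 1892 bp of it with VAL1 and VAL2 intact, and 386 and 318 bp without them. The retained mutant peaks lay at chromosome 5, 5880412 to 5880809 with a fold of 3.16 and 5880441 to 5880758 with 2.72. TGA10, a bZIP factor gene, was under 3 lost regions between 2123454 and 2125396 on chromosome 5, the strongest with folds of 6.86 and 4.75. Covered lengths were 2746 and 2693 bp and then 1451 and 1587 bp, with mutant peaks on both sides of the lost stretch. At CUC1, a NAC gene of organ boundaries, the lost region at chromosome 3, 5110379 to 5111734, had folds of 4.98 and 3.78 and mutant peaks 129 and 234 bp away. In each of these genes, both SWN-GFP lists covered more bp than either mutant list. By the rule, lost regions add bp to the SWN-GFP lists only, and these genes were chosen after their values were seen. Not every kept gene under a lost region went this way. At the seed storage gene CRU2, peaks covered 905 and 1327 bp in the SWN-GFP lists and 933 and 898 bp in the mutant lists.

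FUS3 and LEC1, regulators of embryo maturation, had lost regions although neither gene was lost as a whole. FUS3 encodes a B3-domain activator of seed genes. It had a lost region at chromosome 3, 9853971 to 9854595, with folds of 3.49 and 3.91. FUS3 kept strong peaks elsewhere in all 4 lists. Its strongest peaks ranked at percentiles 99.95 and 99.92 of the SWN-GFP lists and 98.9 and 99.2 of the mutant lists. Their folds were 24.7 and 22.7 in SWN-GFP and 12.1 and 13.1 in the double mutant, and folds of different lists cannot be compared directly. LEC1, a gene of a CCAAT-binding factor subunit, had a lost region at chromosome 1, 7729167 to 7729588, with folds of 2.45 and 2.32. It kept a peak in SWN-GFP val1 val2 replicate 2 (fold 2.60) and had none in replicate 1. Altogether 104 lost regions (8.87%) overlapped a protein-coding gene that had a peak in all 4 lists.

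Neighbouring lost regions formed short runs. A run is a set of lost regions that follow each other with no other union region between them. Of the lost regions, 807 stood alone, while 160 runs of 2 or more held 366 and 33 runs of 3 or more held 112. Runs of the other classes are not given here, so these counts cannot be called particular to lost regions. Some runs, such as those at TGA10 and WOX12, were separate regions over a single gene. The longest run had 7 regions over 69.2 kb of chromosome 4, 12889475 to 12958684. It held OLEO1, AT4G25250 (6.12 and 6.25) and AT4G25330 (6.52 and 6.55) with weaker regions over MC2, a metacaspase gene (3.23 and 2.72), AT4G25150 (2.47 and 2.37), QWRF7 (4.31 and 3.99) and AT4G25260 (2.47 and 2.92). The mutant lists had no peak anywhere in this stretch, since a peak there would have been a union region of another class.

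The other runs were shorter. Those of 5 regions lay over the laccase gene LAC8 and its neighbour AT5G01050 on chromosome 5, 13934 to 21531, with folds up to 3.91 and 3.75, and over AT5G56980, AT5G56990 and AT5G57010, 23057460 to 23068659. Of the 5 runs of 4, one covered AT3G55890, whose single span of 1832 bp was touched by all 4 regions, and another took in IKU2, a receptor kinase gene of seed size, and BCAT4, an aminotransferase gene of glucosinolate synthesis. RABA6b and PUP9, genes of a Rab GTPase and a purine permease, shared another. The runs of 3 included the stretches over JAZ1, PER1, the senescence protease gene SAG12, the pectin methylesterase gene PME3 and the fatty acid desaturase gene FAD3. Reads that map to more than 1 copy of a gene could blur tandem neighbours, and the sources used here do not say how they were treated.

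Gene functions were counted in 31 lists of genes, 12 by locus tag and 19 by the start of the symbol, against the 16.0% of all genes with a peak in both SWN-GFP lists that were lost. The lists held 58 distinct lost genes, and a gene lost by this count need not lie under a lost region. The counts are small, no list was tested, and none is called particular to lost regions. Shares above 16.0% with at least 4 lost genes were found for XTH enzymes (5 of 13), UDP-glycosyltransferases (6 of 20), expansins (4 of 14) and LBD factors (4 of 14). The counts for XTH enzymes and expansins include XTH7, XTH25 and EXPA1, which lay under no lost region. Shares below it with at least 25 genes were those of WRKY (2 of 38), MYB (3 of 54), NAC (1 of 33) and HB-named homeobox factors (1 of 25), cytochrome P450s (9 of 73) and microRNA genes (7 of 55, 12.7%). None was lost of 14 floral organ identity genes, 17 meristem genes, 14 IAA repressors, 9 embryo maturation regulators, 8 gibberellin oxidase and receptor genes, 7 glutathione S-transferases, 6 ethylene synthesis genes, 3 bHLH-named factors and 2 SAUR genes. The remaining lists gave 1 of 5 cold response genes, 1 of 5 SABATH methyltransferases, 2 of 19 ERF and DREB factors, 1 of 9 bZIP-named factors, 1 of 14 CLE peptides, 1 of 3 TPS-named synthases and 1 of 4 CRK receptor kinases, besides the hormone, flowering and seed genes below.

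**Figure D5:**
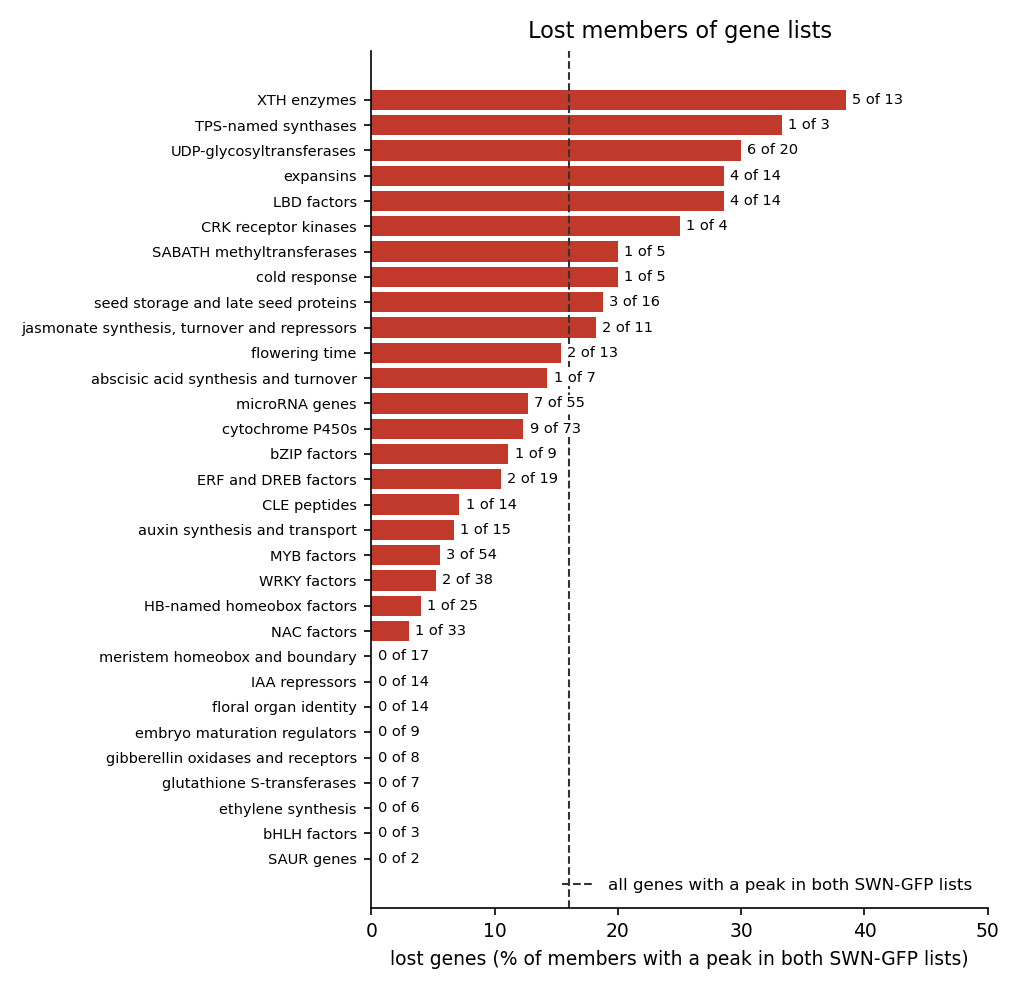
Lost genes as a percentage of the genes of each list that had a peak in both SWN-GFP lists, with the counts beside the bars and a dashed line at the value for all such genes (16.0%). Most lists hold few genes, so 1 gene moves a bar by several percentage points.

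Genes of the cell wall were lost at modest folds. The XTH genes encode enzymes that cut and rejoin xyloglucan. XTH6 was covered over 1455 and 1482 bp with folds of 3.74 and 2.94, XTH25 had 3.08 and 3.16, XTH24 had 2.82 and 2.88, XTH8 had 3.55 and 2.32 and XTH7 had 2.40 and 2.47. The expansin genes, whose products loosen walls, gave EXPA12 (3.10 and 4.13), EXPA5 (4.09 and 2.54), EXPB1 (2.65 and 2.65) and EXPA1 (2.14 and 2.60). The lower fold was 3.10 or less at each of these 9 genes, so all lay among weak or middling peaks, where a missing peak is least certain. XTH25, XTH7 and EXPA1 were lost as genes but lay under no lost region. At EXPA1 the nearest mutant peaks were 14075 and 14070 bp away, farther than the longest union region of 9936 bp. The SWN-GFP replicates thus did not mark the same place in EXPA1. At XTH7 the mutant peaks were 6750 and 6773 bp away, and whether the replicates marked the same place was not examined.

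Enzymes of specialised metabolism and hormone turnover covered a wide range of folds. UDP-glycosyltransferases attach sugars to small molecules. UGT75B2 had folds of 5.09 and 3.43, and UGT85A5 had 4.94 and 3.99 at chromosome 1, 7899268 to 7900252. UGT85A7, on the same stretch of the chromosome, had 2.69 and 3.72, and UGT85A3 was mixed, with a peak in SWN-GFP val1 val2 replicate 2 (fold 2.43). UGT78D1 (2.67 and 2.57), UGT74D1 (2.95 and 2.32) and UGT84A2 (2.57 and 2.72) were as weak as most of the cell wall genes. Among the cytochrome P450 genes, CYP94C1 was followed by CYP86A7 (5.14 and 4.96), CYP82C4 (3.91 and 4.00), CYP76G1 (3.55 and 4.30) and CYP78A8 (3.54 and 4.32). CYP76G1 and CYP78A8 each lay under 2 lost regions. The other P450 genes were weaker, with CYP710A2 at 2.81 and 3.69, CYP94D1 at 2.71 and 2.82, the pseudogene CYP705A17P at 2.78 and 2.81 and CYP708A3 at 2.87 and 2.30.

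In each hormone list 2 genes or fewer were lost. JAZ1, a repressor of jasmonate responses, had folds of 3.63 and 4.18 over 1152 and 1401 bp, and with CYP94C1 made up the 2 lost of 11 jasmonate genes. NCED2 was the 1 lost of 7 abscisic acid genes and YUC5, of auxin synthesis (3.30 and 2.83), the 1 lost of 15 auxin genes. EIR1, the auxin efflux carrier gene also called PIN2, had a lost region at chromosome 5, 23104305 to 23105772, and a peak in SWN-GFP val1 val2 replicate 2 elsewhere (fold 2.56). Of 13 flowering time genes 2 were lost, the FLC relatives MAF5 (4.54 and 3.62) and MAF4 (2.23 and 2.47). Of 16 seed storage and late seed genes 10 were kept, and the lost ones were PER1, OLEO1 and OLEO3. That share, 18.8%, was near the 16.0% of all genes with a peak in both SWN-GFP lists. AT1G03890, meant for that list but left out because its name there belongs to another locus in the gene table, was lost as well (3.29 and 2.89, under 2 lost regions). Outside the gibberellin list, 2 genes chosen after their values were seen were lost: GA2OX5, a transcribed pseudogene in the gene table (3.92 and 4.44), and RGL1, which encodes a DELLA repressor of gibberellin responses (2.57 and 2.32).

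Few transcription factor genes of the listed families were lost with strong peaks. LBD40 was the strongest, followed by NAC2 (AT3G15510), which had folds of 4.51 and 5.56 over 1641 and 1758 bp of its span. LBD2 had 4.34 and 3.50 and LBD33 had 3.84 and 3.07. BZIP34 had 3.53 and 3.07 and lay under 2 lost regions. WRKY30, a stress-induced factor gene, had 3.89 and 3.32, and the cytokinin response factor gene CRF8 had 3.41 and 3.37. WRKY75 had 3.03 and 4.48, and ERF104 had 2.71 and 2.73. The MYB genes MYB3, MYB112 and MYB122 stayed at 3.32 or lower in both lists, and MYB112 lay under no lost region.

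Noncoding genes among the lost were mostly long noncoding RNAs, 54 of 73. Those were also most of the noncoding RNA genes with a peak in both SWN-GFP lists, 331 of 481. Their majority among the lost is thus near that among all such genes. The 7 lost microRNA genes were MIR864 (3.83 and 4.81), MIR8182 (3.23 and 3.28), MIR169f (3.58 and 2.40), MIR158a (2.67 and 4.43), MIR167d (2.83 and 2.10), MIR164a (2.45 and 2.45) and MIR826b (8.70 and 9.53). miR164 directs cleavage of the transcripts of CUC1 and its relatives, and miR167 that of auxin response factors. The peaks at MIR826b covered all 94 bp of the gene, but the union region there was not lost, since it held a mutant peak outside the gene. MIR158a and MIR167d also lay under no lost region. Named genes of other noncoding types were GUT15 (3.15 and 2.28) and the spliceosomal RNA gene U2.13 (2.98 and 4.05), which together with 3 of 7 tRNA genes and 7 of 60 other RNA genes complete the noncoding set. Pseudogenes gave 24 of 96 transcribed and 7 of 43 others.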

How the data were processed

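Chromatin immunoprecipitation with sequencing gave 1 deposited peak list for each of 4 libraries, and 2 input libraries had no list here. Bowtie2, SAMtools, Picard and MACS2 were used on build TAIR10, per the submitters' processing notes, which name no versions or settings. The deposited lists lack a header, and their 10 columns were read as those of a MACS2 table. The pileup at a summit is a signal the authors deposited, in whole fragments. The −log10 p and −log10 q and the fold, a ratio of pileup to local background, are the authors' own scores per peak, and were used only within their own list. The local background was computed as (pileup + 1)/fold − 1.

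Peaks were merged into union regions with Python 3.11.15, numpy 2.4.6 and pandas 2.3.3, exact binomial intervals came from scipy 1.17.1 and figures from matplotlib 3.10.9. The merging was tested on simulated lists. A gene's peaks are those that overlap its span in a RefSeq table of TAIR10.1, which holds 37899 nuclear genes. Its coordinates are not printed. No test between genotypes was made: an exact permutation test of 2 libraries against 2 cannot go below 0.333. The members and gene lists were chosen with earlier results of these data known. Regions were named as the 25 strongest, the 10 broadest, the longest runs and the lost genes of the lists and noncoding types, with values mainly for list genes at percentile 50 or more in both SWN-GFP lists. Others in the text (TGA10, WOX12, CUC1, FUS3, LEC1, EIR1 and list genes below percentile 50) were chosen after their values were seen. Not every lost gene of the lists is named in the sections above. Among those left out were CRK14 (3.71 and 2.81), LBD1 (3.01 and 3.02), CLE14 (2.89 and 3.35) and HB27 (2.62 and 3.03). List genes AT1G03890 (lost) and AT4G33980 (gained) were left out because the gene table does not give these locus tags the names they had in the list. Symbols were matched by their start in either letter case. A further gene list is not reported here. No sequence was used here, so RY elements were not analysed. The alternatives were another merging overlap, stricter thresholds of q and fold, lists of equal length, other definitions of a gene's peaks, a minimum distance to mutant peaks and leaving out each library.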

Additional observations from a re-analysis of the deposited data

How the results depend on the processing

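Of 44 alternative values 25 stayed within a limit and 19 moved past it. The limit was 1.5 times for a count, the exact binomial 95% interval for a share and 21.9 bp for the median length. Those 21.9 bp are the SD of the median lengths covered in lost regions by SWN-GFP replicates 1 and 2 (447 and 478 bp). They do not measure the spread of region length. The number of lost regions (1173) ranged from 1405 to 2387 when 1 library was left out. It was highest without SWN-GFP replicate 1 (2387) or 2 (2146), where a single list had to hold a peak, and it was 857 to 1303 in the other settings. The share lost of regions with a peak in both SWN-GFP lists (20.1%) was 22.2% with a −log10 q of at least 5, 25.3% with a fold of at least 3, 22.9% with lists of equal length and 23.8% to 30.5% without single libraries. With raised thresholds a lost region can still hold a weaker mutant peak. The median length (579 bp) was 754 bp with that q, 846 bp with that fold and 318 to 580 bp without single libraries. The share over protein-coding spans (72.6%) was 81.5% with that q, 86.1% with that fold, 65.9% to 74.2% without single libraries and 87.3% with 1000 bp added on either side. That flank also raised the lost protein-coding genes from 740 to 1112, against 912 to 1086 without single libraries. No paired analysis was possible because the results come from no test across samples. The planned comparison of RY motif counts was not run, since no sequence was used here. Depth is unknown, so a peak missing from a mutant list is least certain for weak regions.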

Other observations

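A further 61 protein-coding genes were lost as genes although no lost region overlapped them, as where the union region at the gene reached a mutant peak outside its span. PLAT2, a gene of a PLAT-domain protein, had folds of 13.9 and 14.2 in the SWN-GFP lists, and the nearest mutant peaks lay 479 and 512 bp from the gene. AT5G47300 had 13.1 and 11.5, with mutant peaks 610 and 471 bp away, and AT2G32130 had 10.5 and 11.3, with mutant peaks 260 and 256 bp away. IAMT1, whose enzyme methylates indole-3-acetic acid, had 10.8 and 9.96. The nearest mutant peak was 122 bp away in replicate 1 and 17395 bp away in replicate 2. Some of these genes were only touched by the edge of a peak: AT3G55600 had folds of 12.8 and 12.0, with 53 and 19 bp of its span covered and mutant peaks 15 and 12 bp away. Others were far from mutant peaks in both lists, among them TPS1, a synthase gene of trehalose phosphate. It had folds of 2.28 and 3.08, with mutant peaks 17688 and 17716 bp away. No union region was longer than 9936 bp, so none at TPS1 reached a mutant peak. The SWN-GFP replicates covered 295 and 209 bp of its 8573 bp, with peaks in different union regions. The replicates thus did not mark the same place in TPS1.

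Of the protein-coding genes under lost regions, 40 lay under 2 or more and 4 under 3 or more. KCS2, a gene of a fatty acid elongase, was under 2 and ranked at percentiles 85.5 and 83.5 by fold, with 1335 and 1469 bp of its 3088 bp covered. LOX3, a lipoxygenase gene of jasmonate synthesis, was also under 2 and was kept, with 2686 and 3266 bp covered in SWN-GFP and 1669 and 1655 bp in SWN-GFP val1 val2.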
